A study of Mus musculus with 4 samples.

Results

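The genes of glycolysis and of the hypoxia response were examined in the sorted cells of day-4.5 neural aggregates derived from mouse embryonic stem cells (ESCs). The members were 41 genes chosen by name: the glucose and lactate transporters, the glycolytic enzymes, the kinases that switch off pyruvate dehydrogenase, and well-known targets of hypoxia-inducible factor (HIF). Of these, 39 were measured here, by 81 probe sets whose only gene symbol was a member, among 18194 genes on the array; Gpi1 and Eno1 were not analysed here. Rax::eGFP ESCs, which report the eye field gene Rax, were reaggregated in a serum-free medium without growth factors (SFEBq culture), and Rax::GFP+ cells (rostral) and Rax::GFP- cells (presumptive caudal) were separated by FACS at day 4.5. Both groups came from the same line and culture with no added treatment, and the RNA of each array came from cells pooled over many aggregates. RNA was measured on 4 Affymetrix mouse genome arrays, 2 biological replicates of each group, and the values are log2 RMA values, in which 1 unit is a 2-fold difference. All differences are GFP- minus GFP+, an adjusted p is limma's after Benjamini-Hochberg adjustment over all probe sets, and "passed" means an adjusted p under 0.05.

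Glycolysis turns glucose into pyruvate in the cytoplasm. Pyruvate then either becomes lactate through lactate dehydrogenase and leaves the cell on monocarboxylate transporters, or enters mitochondria, where pyruvate dehydrogenase feeds it to the tricarboxylic acid cycle unless pyruvate dehydrogenase kinases (Pdk) block that enzyme. When oxygen is low, prolyl hydroxylases no longer mark the HIF alpha subunits for destruction, and HIF raises many glycolytic enzymes together with Pdk1, Bnip3, Vegfa and carbonic anhydrases. Pluripotent cells and early embryonic epithelia are known for high glycolysis also where oxygen is plentiful, and many steps have several isoenzymes, encoded by different genes, which tissues use differently.

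A minority of the genes differed between the sorted cells, and each of those was higher in Rax::GFP- cells. Of the 39 measured genes, each taken by its probe set of the highest mean level, 7 were higher in GFP- cells (17.9%) and 0 were lower. Over all genes tested, 5.40% were higher and 2.63% were lower. At an unadjusted p under 0.05, 16 members were higher and 1 was lower. The 7 genes were Pdk1, Ndrg1, Ldhb, Pfkp, Bnip3, Hk2 and Slc16a1, and 4 of them, the first named, differed more than 2-fold. The other 32 did not pass, and 19 of the 39 differed by less than 0.2 in size. The median log2 difference of the members was 0.15, against 0.05 over all genes. The log2 difference was above 0 at 33 members (84.6%, against 61.9% of all genes). Both GFP- arrays lay above both GFP+ arrays at 26 members (66.7%, against 38.4% of all genes) and below both at 4 (against 21.7% of all genes), while 9 overlapped.

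By segment of the pathway, 2 of 11 measured genes from glucose transport to aldolase were higher in GFP- cells, 0 of 6 from triose phosphate isomerase to pyruvate kinase, 3 of 9 of lactate and pyruvate, and 2 of 13 of the hypoxia response. Over all genes 5.4% were higher, and with 6 genes a count of 0 cannot be told from that share. The median log2 differences of these 4 segments were 0.21, 0.03, 0.29 and 0.15, against 0.05 over all genes.

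**Figure D1:**
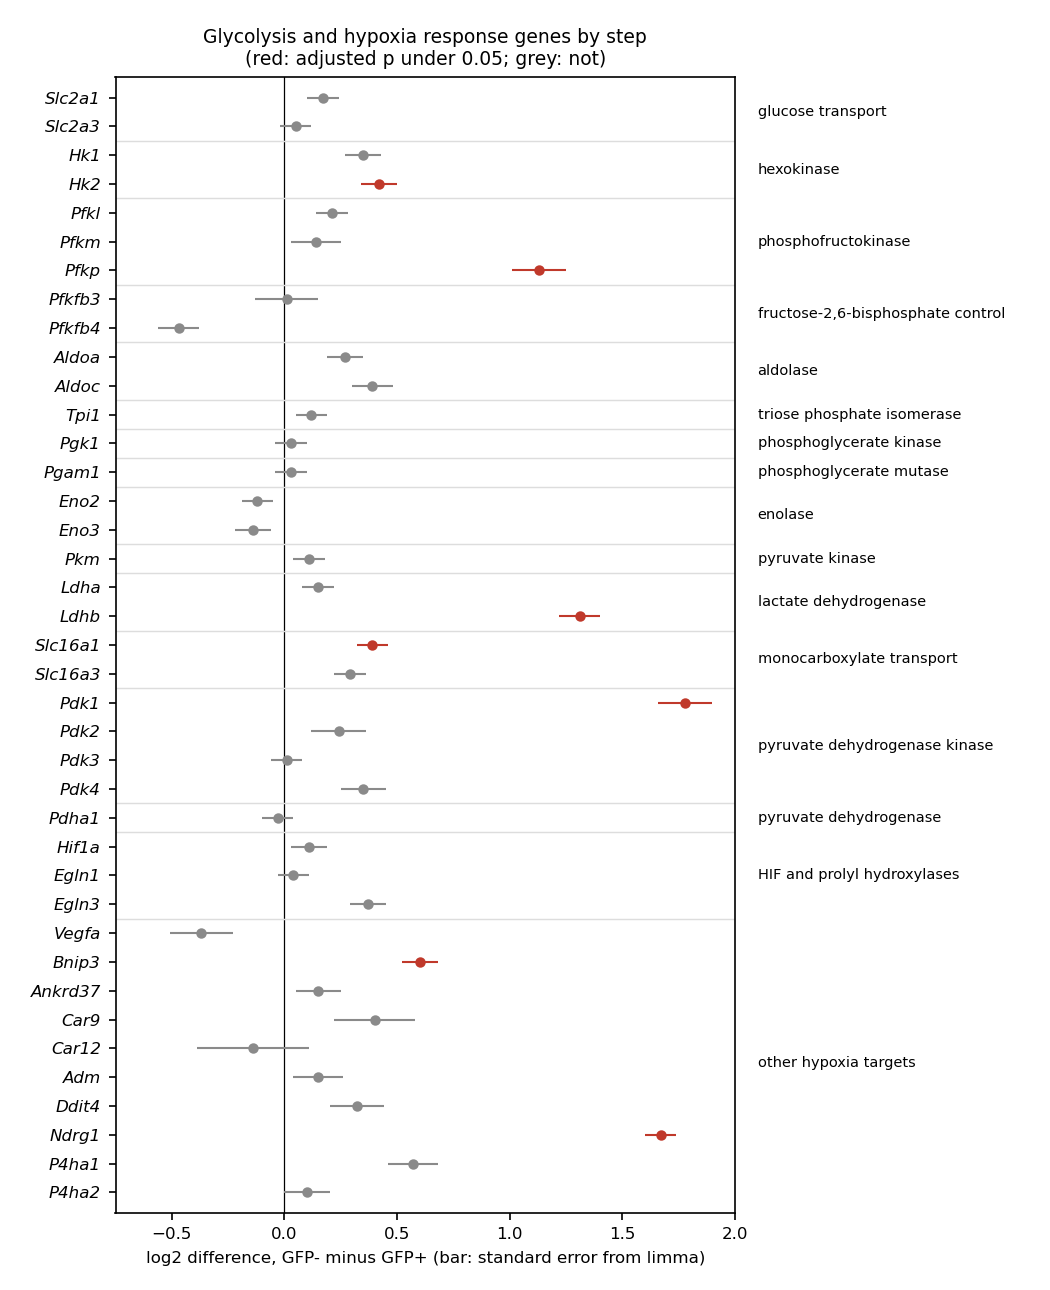
Log2 difference, GFP- minus GFP+ (x axis), of the 39 measured genes in pathway order (y axis), each by its probe set of the highest mean level; points are differences over 2 arrays a group, bars are limma's standard errors, and red marks an adjusted p under 0.05. The 7 red points all lie above 0, from 0.39 for Slc16a1 to 1.78 for Pdk1, and the lowest point is Pfkfb4 at -0.47.

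In the check of the sort, Rax had a log2 difference of -2.05 (limma adjusted p = 0.00785) and Irx3, a caudal marker, one of 2.59 (limma adjusted p = 0.0175). Markers of pluripotency, of endoderm and of early neural cells also differed between the groups. Of 10 measured pluripotency markers 9 were higher, with a list mean over genes of 6.80 to 6.94 on the GFP+ arrays and 9.41 to 9.43 on the GFP- arrays. Of 15 endoderm markers 11 were higher and 1 was lower, with list means of 6.28 to 6.69 and 8.06 to 8.18. Of 8 early neural markers 4 were lower, with list means of 10.45 to 10.50 and 9.79 to 9.86. Of 8 mesoderm and streak markers 1 was higher, Eomes, and of 6 neuron markers 1 was lower. Log2 values have no 0, so a marker cannot be called absent. The part of cells with these markers in the differences of the glycolytic and hypoxia genes was not tested. In sorted populations a different share of cells and a different level of RNA per cell cannot be told apart. Immediate early genes, which respond to handling, had list means of 9.26 on GFP+ replicate 1 and 7.67 to 8.0 on the other arrays, and their part in the differences was not tested.

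Of the 37 measured members with a RefSeq promoter (GRCm38.p6, 250 bases before to 50 after the transcript start), the windows of 4 genes that changed are shown with that of Ldha, the isoenzyme partner of Ldhb that did not pass. Capitals mark ACGTG and GCGTG, the core letters of the hypoxia response element, on either strand, so that the other strand reads CACGT and CACGC. The palindrome CACGTG counts on both strands and is also the E-box that Myc proteins can bind.
Pdk1, chr2:71872974-71873273, plus strand, 1 of 2 listed starts: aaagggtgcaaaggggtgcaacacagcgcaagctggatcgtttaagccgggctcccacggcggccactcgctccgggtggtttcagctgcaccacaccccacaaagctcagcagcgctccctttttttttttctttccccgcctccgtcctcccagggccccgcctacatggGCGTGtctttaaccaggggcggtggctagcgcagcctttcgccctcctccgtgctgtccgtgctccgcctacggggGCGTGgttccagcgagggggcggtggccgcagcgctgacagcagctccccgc
Bnip3, chr7:138909457-138909756, minus strand: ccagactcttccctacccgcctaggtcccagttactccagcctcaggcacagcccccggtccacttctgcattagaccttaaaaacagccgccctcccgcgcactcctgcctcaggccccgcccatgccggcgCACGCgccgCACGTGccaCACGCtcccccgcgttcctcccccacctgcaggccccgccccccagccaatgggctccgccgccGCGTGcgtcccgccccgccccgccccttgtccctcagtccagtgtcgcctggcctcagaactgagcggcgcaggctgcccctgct
Hk2, chr6:82774405-82774704, minus strand: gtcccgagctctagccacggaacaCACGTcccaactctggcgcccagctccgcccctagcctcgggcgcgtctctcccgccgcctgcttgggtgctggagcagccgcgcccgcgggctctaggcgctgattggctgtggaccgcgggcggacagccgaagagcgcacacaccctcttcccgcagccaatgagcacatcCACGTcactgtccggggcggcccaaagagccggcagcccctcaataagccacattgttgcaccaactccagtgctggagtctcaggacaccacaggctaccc
Ldhb, chr6:142507908-142508207, minus strand: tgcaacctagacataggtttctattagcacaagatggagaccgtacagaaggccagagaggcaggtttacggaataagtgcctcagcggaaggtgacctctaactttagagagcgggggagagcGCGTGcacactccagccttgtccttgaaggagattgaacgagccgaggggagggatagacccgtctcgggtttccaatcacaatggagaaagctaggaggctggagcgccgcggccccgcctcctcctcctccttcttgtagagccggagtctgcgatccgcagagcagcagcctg
Ldha, chr7:46845554-46845853, plus strand, 1 of 2 listed starts: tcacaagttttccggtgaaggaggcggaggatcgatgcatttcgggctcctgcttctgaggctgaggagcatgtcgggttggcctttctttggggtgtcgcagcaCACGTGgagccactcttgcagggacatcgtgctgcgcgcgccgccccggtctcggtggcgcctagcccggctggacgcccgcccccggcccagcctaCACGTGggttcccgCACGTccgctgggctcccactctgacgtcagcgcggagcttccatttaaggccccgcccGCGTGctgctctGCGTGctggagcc

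ACGTG or GCGTG stood in 40 of the 50 promoters of measured members (80%) and in 43.8% of 32851 mouse promoters of the same length. ACGTG alone stood in 56% of the members' promoters and in 19.6% of those 32851 promoters, and GCGTG in 56% and 32.4%. The 32851 are the promoters counted here and not every mouse promoter. Such letters were common both in genes that passed and in genes that did not. All 6 genes higher in GFP- cells that had a promoter held either set of letters in at least 1 of their promoters, and so did 28 of the other 31. Ldha, which did not pass, held 7 matches in the window shown, with 2 CACGTG, and Ldhb, which differed 2.48-fold, held 1. For Pdk1 and Ldha the listed start with more matches is shown, and the other start held 0 and 2. The members were chosen partly as HIF targets, base composition was not matched, and some windows of the same gene overlap. The letters describe these windows and are not evidence of a bound factor.

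Glucose can enter cells through Slc2a1 (Glut1) and Slc2a3 (Glut3), and both had high values in both groups. Slc2a1 stood at 13.89 and 13.84 on the GFP+ arrays and at 14.05 and 14.02 on the GFP- arrays, a log2 difference of 0.17 (adjusted p = 0.235 from limma). The GFP- arrays lay above the GFP+ arrays by more than the replicates differed, but the gene did not pass. All 3 of its probe sets were above 0, at 0.17 to 0.28, and the 4 probe sets of Slc2a3 ran from 0.05 to 0.32.

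The hexokinases trap glucose in the cell as glucose phosphate. Hk2, the inducible isoenzyme, had values of 10.86 and 10.80 in GFP+ and 11.21 and 11.28 in GFP- cells, 1.34-fold higher in GFP- cells (log2 difference 0.42 ± 0.08 SE, limma adjusted p = 0.0483). Hk1, the widely expressed isoenzyme, had 8.66 and 8.58 against 8.91 and 9.03, a difference of 0.35 ± 0.08 (SE) on the log2 scale (limma adjusted p = 0.0819). Both genes thus had higher values on each GFP- array, and their differences were 0.07 apart. A less expressed probe set of Hk1 passed, with a log2 difference of 0.58 (adjusted p = 0.0393 from limma).

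Phosphofructokinase makes the committed step, and its 3 genes encode the liver (Pfkl), muscle (Pfkm) and platelet (Pfkp) subunits. Pfkp had values of 6.80 and 6.59 in GFP+ and 7.74 and 7.92 in GFP- cells, 2.19-fold higher (log2 difference 1.13 ± 0.12 SE, limma adjusted p = 0.0166). Pfkl stood at 9.60 and 9.63 against 9.85 and 9.81 (log2 difference 0.21, adjusted p = 0.151) and Pfkm at 9.63 and 9.77 against 9.73 and 9.94 (log2 difference 0.14, adjusted p = 0.489). The platelet subunit was therefore the isoenzyme of this step that passed, and its difference exceeded those of Pfkl and Pfkm by 0.92 and 1.0 on the log2 scale. The other probe sets of Pfkp, at lower levels, had log2 differences of 0.16 (adjusted p = 0.458) and 0.38 (adjusted p = 0.126), and the mean of its 3 probe sets differed by 0.56.

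Pfkfb3 and Pfkfb4 make and break the sugar phosphate that activates phosphofructokinase. Pfkfb4 was the member with the lowest difference, at 7.72 and 7.82 in GFP+ and 7.37 and 7.22 in GFP- cells, a difference of -0.47 ± 0.09 (SE) on the log2 scale (limma adjusted p = 0.0543). Its groups did not overlap, and it passed as lower in GFP- cells in 4 of 12 alternative analyses. Pfkfb3 stood at 6.68 and 6.36 against 6.61 and 6.45, and its groups overlapped.

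Aldolase splits the sugar into triose phosphates. Aldoa, the main isoenzyme, had values of 12.72 and 12.75 in GFP+ and 12.95 and 13.05 in GFP- cells (log2 difference 0.27, adjusted p = 0.115 from limma), and its 5 probe sets ran from 0.19 to 0.33. Aldoc, the brain isoenzyme, had 8.51 and 8.42 against 8.93 and 8.78 (0.39, adjusted p = 0.0780). Neither passed, and their per-array differences from each other overlapped between the groups.

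The steps from triose phosphate to pyruvate had the lowest median difference of the 4 segments, 0.03, which lay near the 0.05 of all genes. Pgk1, a HIF target elsewhere, stood at 13.27 and 13.22 in GFP+ and 13.26 and 13.28 in GFP- cells, a log2 difference of 0.03 (standard error 0.07). Pgam1 differed by 0.03, Tpi1 by 0.12 and Pkm, the pyruvate kinase of embryonic and dividing cells, by 0.11. The enolases Eno2 (neuronal) and Eno3 (muscle) differed by -0.12 and -0.14, and the segment lacks Eno1, which was not analysed here. None of these 6 genes passed, with adjusted p from 0.348 to 0.862 in limma. Gapdh, which lies between Tpi1 and Pgk1 and is no member, differed by -0.02 (adjusted p = 0.876), and by 0.02 when arrays were centred on their medians.

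Lactate dehydrogenase is built from a pair of subunits that had unlike values here. Ldhb, the subunit known from heart and from oxidative tissues, had values of 10.80 and 10.87 in GFP+ and 12.07 and 12.22 in GFP- cells, 2.48-fold higher (log2 difference 1.31 ± 0.09 SE, limma adjusted p = 0.0083). All 4 probe sets of Ldhb passed, with log2 differences from 1.25 to 1.34. Ldha, the subunit of glycolytic muscle and a HIF target, had 13.03 and 13.01 against 13.19 and 13.16, a difference of 0.15 ± 0.07 (SE) on the log2 scale (limma adjusted p = 0.263). The difference of Ldhb exceeded that of Ldha by 1.16 on the log2 scale, with standard deviations between replicates of 0.06 in GFP+ and 0.13 in GFP- cells.

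Lactate leaves or enters cells on Slc16a1 (Mct1) and Slc16a3 (Mct4). Slc16a1 had values of 12.25 and 12.24 in GFP+ and 12.64 and 12.63 in GFP- cells, 1.31-fold higher (log2 difference 0.39 ± 0.07 SE, limma adjusted p = 0.0483). Slc16a3, the hypoxia-induced exporter, had 5.74 and 5.73 against 6.02 and 6.04 (log2 difference 0.29, adjusted p = 0.0820). Replicates of both transporters lay within 0.02 of each other, and both were higher on each GFP- array.

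Pdk1 had the largest difference of all measured members. This kinase, a HIF target that holds pyruvate dehydrogenase inactive, had values of 7.86 and 7.61 in GFP+ and 9.59 and 9.44 in GFP- cells, 3.43-fold higher (log2 difference 1.78 ± 0.12 SE, limma adjusted p = 0.00829). Of its other probe sets, 2 also passed, at 1.47 (adjusted p = 0.0112) and 1.55 (adjusted p = 0.0130), and the remaining one, with values of 3.01 to 3.19 on all arrays, differed by -0.03. The other kinases of the family did not pass. Pdk2 had 4.99 and 4.95 against 5.35 and 5.07 (log2 difference 0.24, adjusted p = 0.270), Pdk3 had 9.50 and 9.54 against 9.53 and 9.52 (adjusted p = 0.974), and Pdk4, known from fasting, had 4.0 and 3.90 against 4.22 and 4.39 (0.35, adjusted p = 0.104). Taken from the difference of Pdk1, those of Pdk2, Pdk3 and Pdk4 lay at -1.54, -1.77 and -1.43 on the log2 scale. All values of Pdk2 and Pdk4 lay below the array medians of 5.84 to 5.89, which limits the contrasts with them. Pdha1, the catalytic subunit that these kinases phosphorylate, differed by -0.03 (adjusted p = 0.841).

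**Figure D2:**
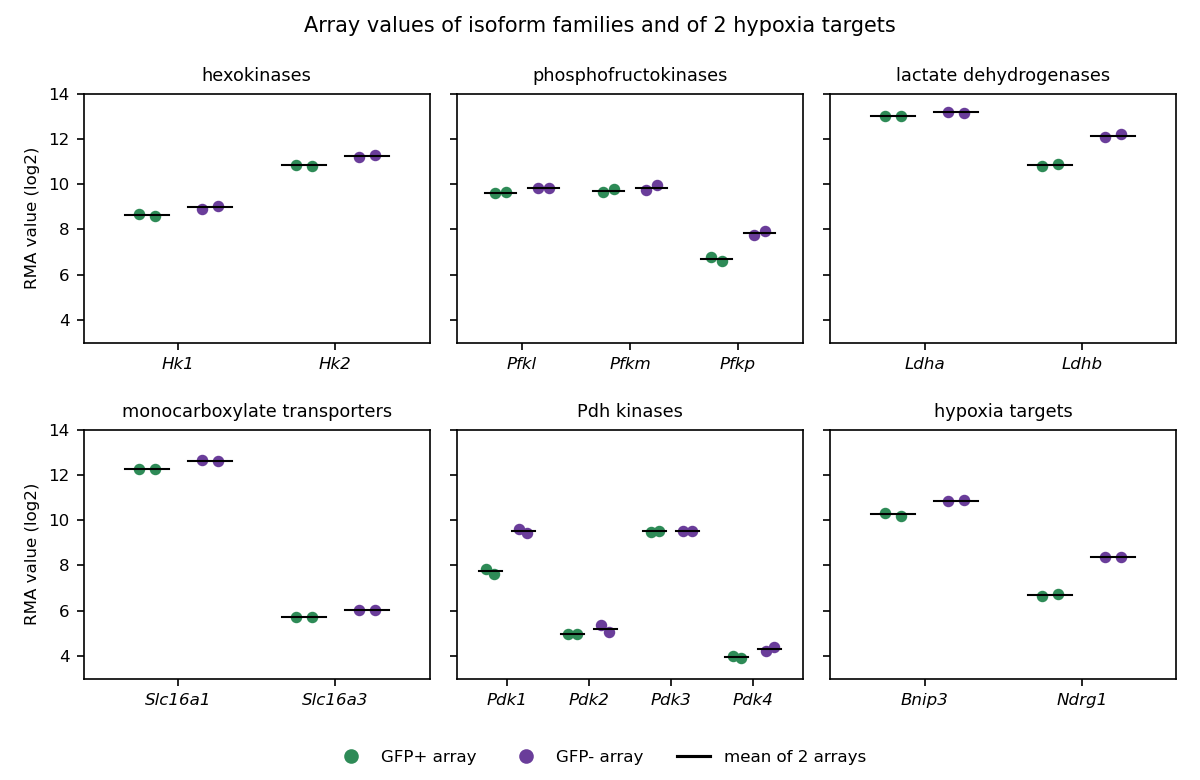
RMA value (log2, y axis) on each array for the isoenzyme families with a gene that passed and for Bnip3 and Ndrg1 (x axis). Circles are arrays, green for GFP+ and purple for GFP-, black bars are means of 2 arrays, and heights of different genes are not comparable; Pdk1, Ldhb, Pfkp and Ndrg1 show gaps of 0.94 to 1.63 between the groups, while Pdk3 and Pfkm overlap.

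In all, 19 pairs of isoenzymes of the same step were compared by the difference between their log2 differences. With 2 arrays in each group the smallest two-sided p of the exact permutation test is 0.333, so none of these contrasts could pass. Of the 19 pairs, 14 reached p = 0.333 (0.452 after Benjamini-Hochberg adjustment over the 19 pairs, exact permutation test), which means only that their groups did not overlap. They included the pairs named above of Pfkp with Pfkl or Pfkm, Ldhb with Ldha, and Pdk1 with each of its relatives. Several pairs share a gene, and no such share was computed over other pairs of genes. Of all genes taken singly, both GFP- arrays lay above both GFP+ arrays at 38.4% and below both at 21.7%. Of the pairs with a hypoxia target, Egln3 exceeded Egln1 by 0.33 and P4ha2 lay at -0.46 from P4ha1, both without overlap. Car9 and Car12 overlapped.

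Of Hif1a and the prolyl hydroxylase genes Egln1 and Egln3, 0 of 3 passed. Hif1a, an oxygen-regulated alpha subunit, had values of 12.23 and 12.18 in GFP+ and 12.36 and 12.27 in GFP- cells, a log2 difference of 0.11 (adjusted p = 0.445 from limma), and its 4 probe sets ran from 0.04 to 0.11. HIF is controlled mainly at the level of the protein, which an array does not measure. Egln1, the main prolyl hydroxylase, differed by 0.04 (adjusted p = 0.788). Egln3, a hydroxylase that is itself a HIF target, had 7.53 and 7.54 against 7.96 and 7.86 (log2 difference 0.37, adjusted p = 0.0642), above the GFP+ arrays on each GFP- array but not past the threshold.

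Among the other hypoxia targets 2 of 10 were higher in GFP- cells and 0 were lower. Ndrg1, a gene induced by hypoxia and by differentiation, had values of 6.67 and 6.74 in GFP+ and 8.37 and 8.38 in GFP- cells, 3.19-fold higher (log2 difference 1.67 ± 0.07 SE, limma adjusted p = 0.00551). This probe set is of a type (suffix x) that may also bind other transcripts, but 4 of the 5 probe sets of Ndrg1 passed. Their log2 differences ran from 0.84 to 1.67, and the remaining one differed by 0.39 (adjusted p = 0.119). Bnip3, a mitochondrial protein of mitophagy and cell death, had 10.32 and 10.20 against 10.86 and 10.87, 1.52-fold higher (log2 difference 0.60 ± 0.08 SE, adjusted p = 0.0278).

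The remaining targets, among them the most used markers of hypoxia, did not pass. Vegfa, the endothelial growth factor, had 7.66 and 7.38 in GFP+ and 7.27 and 7.02 in GFP- cells, a log2 difference of -0.37 (adjusted p = 0.193 from limma). Its values were thus lower on the GFP- arrays, while its other probe set differed by 0.07. The carbonic anhydrase Car9 had 4.34 and 4.25 against 4.45 and 4.95 (0.40, adjusted p = 0.252), all below the array medians of 5.84 to 5.89, and Car12 had 6.32 and 5.62 against 5.89 and 5.76, with overlap. Adm, the adrenomedullin gene, and Ankrd37 differed by 0.15 each, and the values of Adm also lay below the array medians. Ddit4, an inhibitor of mTor signaling, stood at 11.53 and 11.31 against 11.82 and 11.65 (0.32, adjusted p = 0.178). P4ha1 and P4ha2 encode collagen prolyl hydroxylases. P4ha1 had 8.24 and 8.17 against 8.64 and 8.90 (0.57, adjusted p = 0.0594), and P4ha2 differed by 0.10. Of the 13 hypoxia response genes 11 had a difference above 0, and the range ran from -0.37 for Vegfa to 1.67 for Ndrg1.

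Genes with several probe sets allowed a check of these differences. Higher values in GFP- cells passed at 16 of the 81 probe sets (19.8%) and lower values at 0, against 3.64% and 3.82% in the whole table. They belonged to 8 genes, the 7 above and Hk1. Probe sets of 1 gene share its RNA and are not replicates. All probe sets of Ldhb passed, those of Slc2a1, Slc2a3, Aldoa, Aldoc, Tpi1, Hif1a, Egln1, Egln3 and P4ha1 all lay above 0 without passing, and those of Pfkl ran from -0.49 to 0.22.

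**Figure D3:**
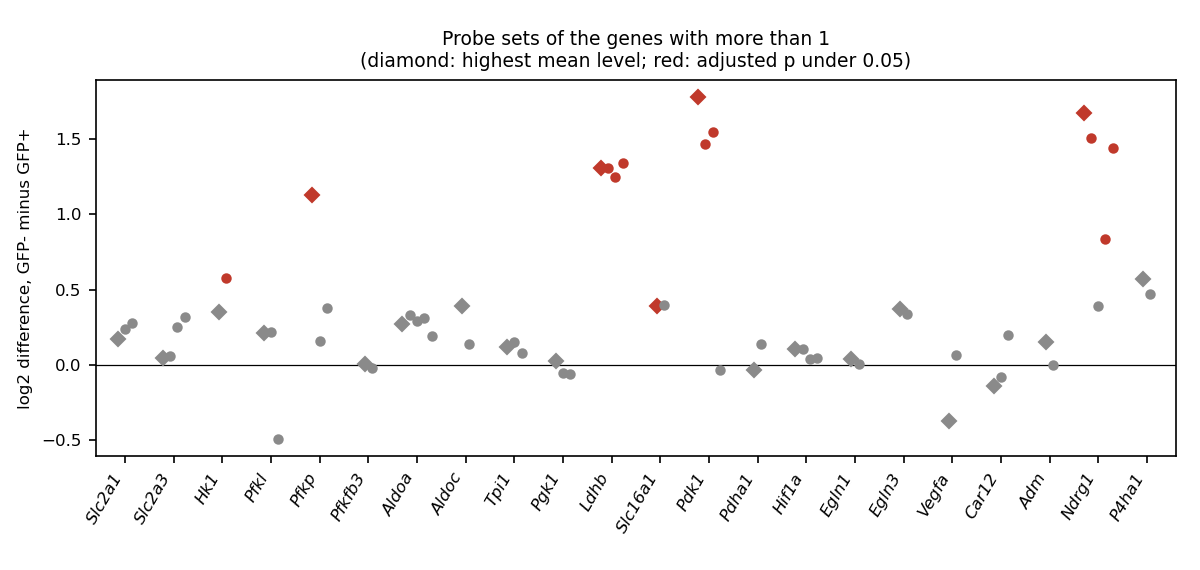
Log2 difference, GFP- minus GFP+ (y axis), of each probe set of the 22 genes with more than 1 (x axis). Diamonds are the probe sets of the highest mean level and circles the others, red for those that passed; the 4 probe sets of Ldhb lie together at 1.25 to 1.34, while 1 of the 4 of Pdk1 lies at -0.03.

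Related pathways were described from the same fit, with 8 lists and 111 measured genes that are no members. Of these, 11 were higher in GFP- cells (9.91%, against 5.40% of all genes) and 1 was lower (against 2.63%). The rest of glycolysis and gluconeogenesis had 3 of 23 higher and 0 lower: Hkdc1, a further hexokinase (log2 difference 1.64, adjusted p = 0.0117 from limma), Pgm1, a phosphoglucomutase (1.39, adjusted p = 0.00976), and Pck2, the mitochondrial enzyme that makes phosphoenolpyruvate (0.55, adjusted p = 0.0380). Of 14 further genes of lactate and pyruvate 1 was higher, Emb, a partner protein of monocarboxylate transporters (0.93, adjusted p = 0.0221), whereas Bsg, the other partner, differed by 0.18 (adjusted p = 0.379). Of 6 pentose phosphate genes 0 passed in limma (2 had an unadjusted p under 0.05), with Tkt at 0.02. Of 17 tricarboxylic acid cycle genes 1 was higher, Idh3a, a subunit of isocitrate dehydrogenase (0.58, adjusted p = 0.0281), and 0 were lower, with Mdh2 at 0.01. With the probe sets of each gene averaged, the differences were smaller for Hkdc1 (0.84), Pgm1 (0.67) and Emb (0.49), which still passed.

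The largest difference among these related genes was that of Epas1, which encodes another oxygen-regulated HIF alpha subunit. Epas1 had values of 7.04 and 7.70 in GFP+ and 9.89 and 10.16 in GFP- cells, 6.29-fold higher (log2 difference 2.65 ± 0.25 SE, limma adjusted p = 0.0143). With its probe sets averaged, Epas1 differed by 1.93 and still passed. Of 10 measured HIF subunits and regulators Epas1 and Cited2, which limits HIF activity (0.59, adjusted p = 0.0248), were higher and 0 were lower. Siah1a, a ubiquitin ligase gene, and Egln2, a further prolyl hydroxylase gene, had log2 differences of 0.04 and -0.07 (adjusted p = 0.818 and 0.577). Of 24 further hypoxia targets 3 were higher, Stc2 (1.35, adjusted p = 0.0150), the repressor gene Bhlhe40 (1.07, adjusted p = 0.0278) and the collagen lysyl hydroxylase gene Plod2 (0.87, adjusted p = 0.0338), and 1 was lower, Ccng2 (-0.78, adjusted p = 0.0260). With the probe sets of each gene averaged, Stc2 differed by 0.80 and Ccng2 by -0.48. Of 8 genes of the integrated stress response, which also induces Ddit4 and Stc2, Trib3 was higher (0.97, adjusted p = 0.0130) and 0 were lower. The median log2 difference of these 8 genes was 0.36, and 6 had an unadjusted p under 0.05 in limma. No immediate early gene passed in limma, and 0 had an unadjusted p under 0.05.

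**Figure D4:**
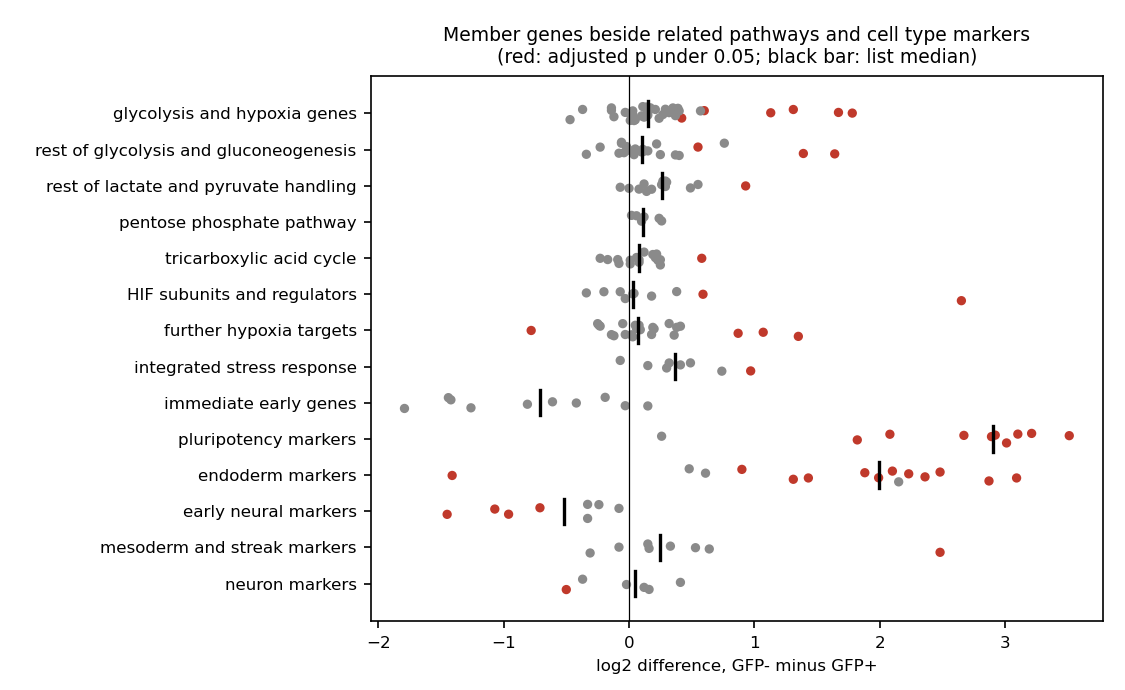
Log2 difference, GFP- minus GFP+ (x axis), of the 39 measured member genes beside related pathways and cell type markers (y axis). Circles are genes by their most expressed probe set, red for those that passed, and black bars are list medians, at 0.15 for the members, 2.91 for pluripotency markers and 1.99 for endoderm markers.

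The calls depended on the arrays in different degrees. Pdk1, Ndrg1, Ldhb and Pfkp passed without GFP+ replicate 1 and without GFP+ replicate 2. Hk2 (adjusted p = 0.137 and 0.114), Slc16a1 (0.156 and 0.108) and Bnip3 (0.0729 and 0.0635) passed in neither case. Without either GFP- array no probe set of the whole table passed in limma (0 of 45101), and 15 and 12 of the members had an unadjusted p under 0.05. The groups of all 7 genes did not overlap, so their differences had to stay above 0 without each array. They ran from 0.38 to 0.40 for Slc16a1 and from 1.65 to 1.91 for Pdk1.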

How the data were processed

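RNA of Rax::GFP+ and Rax::GFP- cells, 2 arrays a group, was analysed from the deposited log2 values. Per the labels and the study's methods, the authors summarized Affymetrix mouse genome arrays by RMA (background correction, quantile normalization, median polish) to 1 log2 value per probe set (R 2.13.0 per the submitters' processing notes). Since RMA equalizes the distributions of arrays, the values hold no trace of total RNA content, and they carry no detection calls. Values ran from 2.20 to 15.1. The number of arrays limits the precision.

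All 45101 probe sets were fitted as 2 groups with limma 3.58.1 in R 4.3.3, with no block and no filter, with Benjamini-Hochberg adjusted p-values (threshold 0.05; 2 residual and 2.52 prior degrees of freedom). The 64 control probe sets stayed in, and 0 passed. Of the probe sets, 34958 carried a single symbol in the platform annotation, 932 carried several and 9211 were unnamed here, and 1 listed symbol was updated through the GRCm38.p6 gene table. Each gene was taken by its probe set of the highest mean. Named genes are all members, and of each related list at most 4 that passed, by size of difference, and at most 2 others of high mean. The members and lists were chosen with earlier results of these data known. The labels do not say whether equal replicate numbers mark one experiment, and the numbers were not used as pairs. Promoter sequences are RefSeq's. The fit was tested on simulated data with known changes. Alternatives were the replicate block, Storey's q-value (lambda 0.5), a filter at log2 5 on 2 arrays, median centring, quantile normalization, an intensity trend, array weights, the mean of a gene's probe sets and leaving out each array.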

Additional observations from a re-analysis of the deposited data

How the results depend on the processing

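The counts of genes past the threshold moved with the processing, and the direction of the 7 called genes did not in any of the 12 alternatives. In most of these it could not turn. The replicate block, Storey's q-value, the filter, the intensity trend and the array weights left the differences of these genes unchanged. Leaving out an array cannot turn genes whose groups do not overlap. Only median centring, quantile normalization and the mean of all probe sets could have turned them. Against 7 member genes higher and 0 lower, the counts were 12 and 1 with Storey's q-value, 10 and 1 with the filter on dim probe sets, 15 and 1 with the intensity trend and 11 and 1 with the mean of all probe sets. The gene lower in each of these was Pfkfb4. Against 16 member probe sets higher and 0 lower, the intensity trend gave 30 and 1, and Storey's q-value and the filter also gave 1 lower. For the related lists, with 11 higher and 1 lower, the alternatives were chosen after seeing the data, and the intensity trend gave 26 and 4, with 2 lower under Storey's q-value and under the filter. Centring each array on its median moved the median of all genes from 0.05 to 0.09 and gave 8 member genes higher.

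With the replicate number as a block, on fewer residual degrees of freedom, 0 probe sets passed in the whole table, so 0 member genes, 0 member probe sets and 0 related genes were called, with 17 member genes at an unadjusted p under 0.05. Deviations of the replicate 1 arrays from their group means had a correlation of -0.0514 across probe sets. Such a value cannot show whether the numbers mark pairs. The main fit had no block because the study's methods named none. When each array was left out in turn, where the lone array of a group was assumed to vary like the other group, 0 to 4 member genes were higher and 0 were lower, 0 to 12 member probe sets were higher and 0 to 1 lower, 0 to 7 related genes were higher and 0 to 5 lower, and the median difference of the members ran from 0.14 to 0.20.

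Over the 12 alternatives the adjusted p ran from 0.000458 to 0.111 for Pdk1, 0.000286 to 0.105 for Ndrg1, 0.000242 to 0.111 for Ldhb, 0.00262 to 0.128 for Pfkp, 0.00189 to 0.187 for Bnip3, 0.00379 to 0.237 for Hk2, 0.00142 to 0.244 for Slc16a1 and 0.00126 to 0.131 for Epas1. Among the members, the related genes that passed and Gapdh, signs turned at 6 members that had not passed and at Gapdh. Pdk3, at 0.0059, was at -0.02 with quantile normalization, -0.01 without GFP+ replicate 1 and -0.0035 without GFP- replicate 1. Pfkfb3, at 0.01, was at -0.15 without GFP+ replicate 2 and at 0.17 without the other GFP+ array, and was at -0.07 without GFP- replicate 1 and -0.005 with the mean of all probe sets. With that mean Pfkl was at -0.02, Pgk1 at -0.03, Pdha1 at 0.06 and Gapdh at 0.08. With centring Pdha1 was at 0.0088 and Gapdh at 0.02, and Car12, at -0.14, ran from -0.49 to 0.21 when single arrays were left out, the last without GFP+ replicate 1. The causes were not tested.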
